A study of Mus musculus with 22 samples.

Results

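The collagen genes other than those of type IV were described in EMT6 tumours. EMT6 is a mouse mammary carcinoma line, and the tumours were grown in wild-type BALB/c mice. The members were all genes of the 2 deposited expression tables whose symbol had the form Col, a number, A and a number, apart from the type IV genes, with a value above 0 in at least 1 library. Of the 24353 genes in each table, 38 had such a symbol outside type IV, and 36 of them were members. Col22a1 and Col26a1 stood at 0 in every library. By structural class the 36 members comprised 11 fibrillar, 8 fibril-associated, 7 beaded filament and related, 4 transmembrane, 3 network-forming, 2 multiplexin and 1 anchoring fibril gene. The type IV genes of basement membranes, 6 in number, were left aside.

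Each mouse received 200000 EMT6 cells in both inguinal fat pads at an age of 5 to 6 weeks. The 5 treatments were all 3 drugs (JQ1, paclitaxel and anti-PD-L1 together), JQ1 with paclitaxel, JQ1 with anti-PD-L1, JQ1 alone and vehicle. JQ1, an inhibitor of BET bromodomain proteins, was given by gavage at 50 mg/kg every day. Paclitaxel, a microtubule stabiliser, and an antibody to PD-L1, a checkpoint ligand, were injected 2 times a week, each at 10 mg/kg. Every group given paclitaxel or the antibody was also given JQ1. Dissociated tumours were divided with beads against CD45, a protein of leukocytes, and RNA of each fraction was sequenced in bulk. The CD45-negative fraction had 3 libraries of the 3-drug treatment, 3 of JQ1 with paclitaxel, 2 of JQ1 with anti-PD-L1, 2 of JQ1 and 2 of vehicle. The CD45-positive fraction had 2 libraries of each treatment. The tumours of the JQ1 with anti-PD-L1, JQ1 and vehicle groups carry a left and a right mark under 1 animal code per group. Those groups may each stand for a single mouse. The libraries of the 3-drug and JQ1 with paclitaxel groups carry different animal codes. The spread behind the p-values was pooled over all 5 groups, so it may mix spread within and between mice. A treatment effect then cannot be told apart from that of a single mouse.

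Collagens are trimers of 3 alpha chains wound into a triple helix. Fibrillar collagens such as types I, III and V build the tension-bearing fibrils of connective tissue, fibril-associated collagens sit on the surface of these fibrils, and type VI forms beaded microfilaments around cells. Network-forming types VIII and X, the anchoring fibril type VII and the multiplexins of vessel and epithelial borders serve other matrices. In mammary tumours fibroblasts are the usual main source, and a dense collagen matrix is a known feature of mammary carcinoma.

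Promoter sequences were available from RefSeq for 30 of the 36 members, on the GRCm38.p6 build, which is not the build used for the expression values. The 4 genes below are shown because the results turn on them. Col8a1 and Col10a1 had every treated library below vehicle in the CD45-negative fraction, a pattern whose share over all genes was not computed. Col5a3 was higher with JQ1 and paclitaxel than with vehicle within the CD45-positive fraction. Col1a2 was the collagen of highest mean level in the CD45-negative fraction. Each run holds the 130 bases before the start site, 5′ to 3′ on the strand of the gene, with capitals for matches to the TATA box TATAAA, the CCAAT box CCAAT and the GC box GGGCGG or their reverse complements.
Col8a1: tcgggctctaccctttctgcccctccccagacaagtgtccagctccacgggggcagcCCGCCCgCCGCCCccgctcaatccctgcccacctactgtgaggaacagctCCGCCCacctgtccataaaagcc
Col10a1: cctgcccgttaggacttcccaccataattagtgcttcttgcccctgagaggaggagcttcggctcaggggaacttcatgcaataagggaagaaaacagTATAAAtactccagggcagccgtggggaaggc
Col5a3: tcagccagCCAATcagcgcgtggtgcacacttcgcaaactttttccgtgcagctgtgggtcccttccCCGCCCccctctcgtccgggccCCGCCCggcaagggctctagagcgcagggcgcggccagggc
Col1a2: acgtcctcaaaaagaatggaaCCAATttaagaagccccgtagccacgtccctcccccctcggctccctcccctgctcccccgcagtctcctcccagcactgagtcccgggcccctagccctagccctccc
These runs lie at chr16:57754738-57754867 (minus strand) for Col8a1, chr10:34389851-34389980 (plus strand) for Col10a1, chr9:20815068-20815197 (minus strand) for Col5a3 and chr6:4505488-4505617 (plus strand) for Col1a2. Col8a1 had 3 GC box matches, starting at positions -73, -66 and -23 from the start site. Col10a1 had 1 TATA box match at -32 and neither of the other motifs. Col5a3 had a CCAAT box match at -122 and GC box matches at -63 and -41, and Col1a2 had 1 CCAAT box match at -109. Among the 30 members, 15 held a GC box, 6 a CCAAT box and 3 a TATA box. Over all 32851 mouse promoters of the same length the shares were 27.3%, 22.4% and 6.83%. A member was counted if any of its promoters held the motif, while these shares are over single promoters. The units thus differ, in a way that can only raise the member counts, and they are not compared. A match describes the letters in this window only.

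The values are FPKM, which scale fragments to gene length and to the library total. They carry no read totals. Relative depth within a fraction, read from the spacing of the lowest values, ranged from 0.547 to 1.79 in the CD45-negative and from 0.629 to 1.71 in the CD45-positive libraries. Ptprc, the gene of CD45, stood at 38.6 to 73.6 FPKM in CD45-positive and at 1.25 to 8.65 FPKM in CD45-negative libraries, and the fibroblast marker Dcn at 2.04 to 16.9 and 81.2 to 359 FPKM. The 2 tables were normalized separately, so levels are set side by side across fractions but not tested. The third library of JQ1 with paclitaxel in the CD45-negative fraction stood apart for these genes, with the lowest value of the fraction in 10 of the 17 members tested there. Its relative depth was 1.58, so it was among the deeper libraries. The calls that rest on that group are given with and without it. Where groups are said below not to overlap, the share of all genes with that pattern was not computed unless it is given. Such a pattern is a description and is not particular to the gene named.

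Fibrillar collagens made up most of the collagen signal of the CD45-negative fraction. Col1a2, Col3a1 and Col1a1 together gave 67.8% to 77.7% of the summed collagen level. Col1a2, which encodes the alpha 2 chain of type I collagen, had the highest mean of all members, 864 ± 171 FPKM (SD, n = 12), and exceeded Col3a1 in 12 of 12 libraries. Col1a2 stood at 619, 756 and 1013 FPKM with 3 drugs, 1156, 871 and 559 with JQ1 and paclitaxel, 846 and 860.3 with JQ1 and anti-PD-L1, 1023 and 768 with JQ1, and 959 and 939.9 with vehicle. The treated libraries lay on both sides of the vehicle libraries.

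Col3a1, the chain of the type III fibrils of soft tissue, was second with a mean of 493 FPKM. It stood at 332, 456 and 576 FPKM with 3 drugs, 572, 440.3 and 229.7 with JQ1 and paclitaxel, 624 and 571 with JQ1 and anti-PD-L1, 528 and 433 with JQ1, and 545 and 605 with vehicle. Col1a1, the alpha 1 chain of type I collagen, came next with a mean of 364 FPKM, a highest value of 601 and a lowest of 151 FPKM. Its values were 198, 266 and 324 FPKM with 3 drugs, 557, 477 and 151 with JQ1 and paclitaxel, 601 and 494 with JQ1 and anti-PD-L1, 528 and 252 with JQ1, and 265 and 255 with vehicle. Both libraries of JQ1 with anti-PD-L1 were above both vehicle libraries, whereas the other treated groups overlapped vehicle.

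The type V genes, whose chains are built into type I fibrils and regulate their width, were lower in level. Col5a1 stood at 34.5, 44.9 and 50.6 FPKM with 3 drugs, 53.3, 45.4 and 29.2 with JQ1 and paclitaxel, 51.5 and 45.9 with JQ1 and anti-PD-L1, 55.4 and 37.2 with JQ1, and 41.0 and 49.7 with vehicle. Col5a3 stood at 15.1, 22.5 and 23.6 FPKM with 3 drugs, 28.2, 29.9 and 9.42 with JQ1 and paclitaxel, 42.9 and 23.5 with JQ1 and anti-PD-L1, 35.0 and 22.1 with JQ1, and 14.1 and 12.8 with vehicle. Apart from the third library of JQ1 with paclitaxel, every treated library was above both vehicle libraries for Col5a3.
Col5a2 stood at 4.43, 4.34 and 4.82 FPKM with 3 drugs, 6.77, 6.71 and 2.76 with JQ1 and paclitaxel, 12.8 and 10.96 with JQ1 and anti-PD-L1, 10.6 and 9.27 with JQ1, and 3.59 and 5.46 with vehicle. The groups without paclitaxel among the treated ones were the high ones for this chain.

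**Figure D1:**
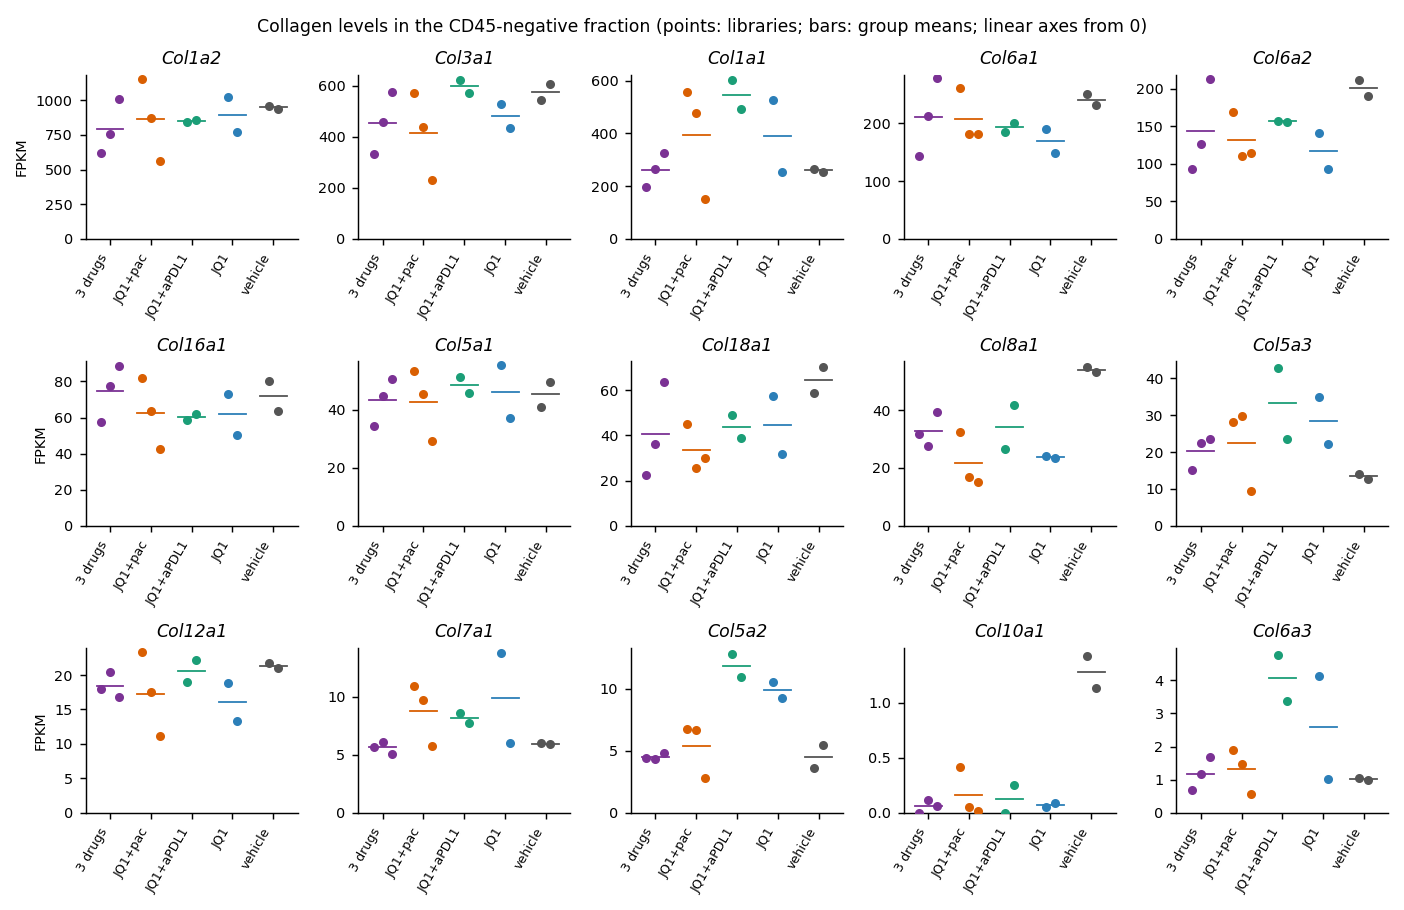
FPKM of 15 collagen genes in the CD45-negative fraction on linear axes from 0, with 1 point per library and a bar at each group mean (JQ1+pac is JQ1 with paclitaxel, JQ1+aPDL1 is JQ1 with anti-PD-L1). The vehicle libraries are the highest for Col8a1 (54.9 and 53.2 FPKM) and Col10a1, and the JQ1 and JQ1 with anti-PD-L1 libraries are the highest for Col5a2.

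Type VI collagen was the second class by level. Col6a1 stood at 143, 213 and 278 FPKM with 3 drugs, 261, 181 and 182 with JQ1 and paclitaxel, 185 and 200.4 with JQ1 and anti-PD-L1, 189 and 149 with JQ1, and 250.3 and 231 with vehicle. Col6a2 stood at 92.5, 126 and 213 FPKM with 3 drugs, 168, 111 and 115 with JQ1 and paclitaxel, 157 and 156 with JQ1 and anti-PD-L1, 140.3 and 93.4 with JQ1, and 212 and 190.4 with vehicle. These 2 chains assemble with the chain encoded by Col6a3, yet Col6a3 was 0.579 to 4.76 FPKM over the 12 libraries, far below both in every one. Its highest values were 4.76 and 3.39 FPKM with JQ1 and anti-PD-L1 and 4.14 FPKM in the first JQ1 library, against 1.05 and 0.986 FPKM in vehicle libraries.

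Among the fibril-associated collagens Col16a1 was highest, with 57.3, 77.6 and 88.8 FPKM with 3 drugs, 82.1, 63.8 and 42.4 with JQ1 and paclitaxel, 58.5 and 61.7 with JQ1 and anti-PD-L1, 73.3 and 50.2 with JQ1, and 80.5 and 63.7 with vehicle. Col12a1, which binds type I fibrils, stood at 18.0, 20.4 and 16.8 FPKM with 3 drugs, 23.3, 17.5 and 11.1 with JQ1 and paclitaxel, 18.9 and 22.2 with JQ1 and anti-PD-L1, 18.8 and 13.3 with JQ1, and 21.7 and 21.04 with vehicle. For Col16a1 the JQ1 with anti-PD-L1 libraries were below both vehicle libraries and the other groups overlapped them. For Col12a1 the libraries of 3 drugs and of JQ1 were below both vehicle libraries. Col14a1, another fibril-associated chain, reached no more than 3.48 FPKM.

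Col18a1, the multiplexin whose C-terminal fragment is endostatin, stood at 22.3, 36.2 and 63.8 FPKM with 3 drugs, 44.9, 25.6 and 29.9 with JQ1 and paclitaxel, 48.9 and 39.0 with JQ1 and anti-PD-L1, 57.7 and 32.0 with JQ1, and 58.9 and 70.4 with vehicle. Of the 10 treated libraries only the third of the 3-drug group lay between the vehicle libraries, and the others were lower. Col7a1, the anchoring fibril collagen of epithelial borders, stood at 5.71, 6.14 and 5.09 FPKM with 3 drugs, 10.9, 9.70 and 5.76 with JQ1 and paclitaxel, 8.61 and 7.71 with JQ1 and anti-PD-L1, 13.8 and 6.02 with JQ1, and 6.00 and 5.90 with vehicle. Its highest value came from the first JQ1 library.

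In the network-forming class, Col8a1 and Col10a1 had every treated library below both vehicle libraries. How many of all genes did so was not counted. Col8a1, a chain of the hexagonal lattices found beneath endothelium and in remodelled matrix, stood at 31.7, 27.6 and 39.4 FPKM with 3 drugs, 32.5, 16.99 and 15.3 with JQ1 and paclitaxel, 26.6 and 41.8 with JQ1 and anti-PD-L1, 24.2 and 23.5 with JQ1, and 54.9 and 53.2 with vehicle. The vehicle libraries were close to each other. Col10a1, known from hypertrophic cartilage, stood at 0, 0.112 and 0.0590 FPKM with 3 drugs, 0.410, 0.0518 and 0.0180 with JQ1 and paclitaxel, 0 and 0.251 with JQ1 and anti-PD-L1, 0.0512 and 0.0868 with JQ1, and 1.42 and 1.13 with vehicle. It passed the level filter only through its vehicle libraries, so a difference from vehicle was built into its being tested, and its differences are given as a description. Col8a2, the partner chain of Col8a1, passed it through vehicle 1 and JQ1 1, with 1.02 and 1.20 FPKM, and was at most 0.641 FPKM elsewhere.

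The order of the 12 highest members was Col1a2, Col3a1, Col1a1, Col6a1, Col6a2, Col16a1, Col5a1, Col18a1, Col8a1, Col5a3, Col12a1 and Col7a1. Each exceeded the next in at least 10 of 12 libraries except at 4 steps. Col5a1 exceeded Col18a1 in 7 of 12, Col5a3 exceeded Col12a1 in 8, and Col8a1 exceeded Col5a3, and Col7a1 exceeded Col5a2, in 9. Below these, Col5a2, Col6a3, Col14a1, Col8a2 and Col10a1 passed the level filter. The remaining 19 members did not reach 1 FPKM in any CD45-negative library, the highest being Col11a2 at 0.808 FPKM, and Col9a1 and Col25a1 were at 0 in all 12. These included the type IX chains of cartilage and all 4 transmembrane collagens, Col13a1, Col17a1, Col23a1 and Col25a1.

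The summed level of the 36 members was 0.406% to 0.934% of all FPKM of a CD45-negative library. It was 1578, 2062 and 2703 FPKM with 3 drugs, 3004, 2302 and 1386 with JQ1 and paclitaxel, 2692 and 2544 with JQ1 and anti-PD-L1, 2709 and 1895 with JQ1, and 2518 and 2510.1 with vehicle. The treated libraries lay on both sides of vehicle, and JQ1 with paclitaxel held both the highest and the lowest. The ratio of Col1a1 to Col1a2, the chains of the type I trimer, was 0.320, 0.352 and 0.320 with 3 drugs, 0.482, 0.548 and 0.271 with JQ1 and paclitaxel, 0.710 and 0.574 with JQ1 and anti-PD-L1, 0.516 and 0.329 with JQ1, and 0.276 and 0.271 with vehicle. It was highest with JQ1 and anti-PD-L1 and lowest in the vehicle libraries and in the JQ1 with paclitaxel library that stood apart.

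**Figure D2:**
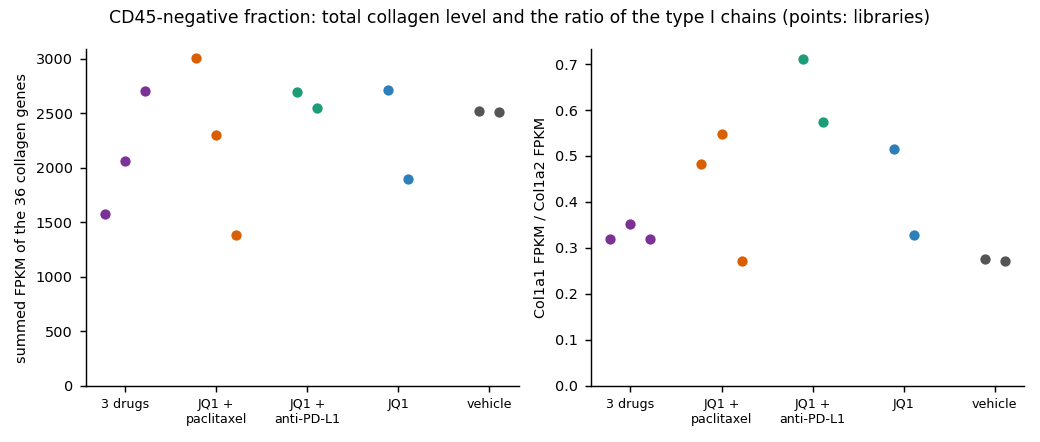
Left, summed FPKM of the 36 collagen genes in each CD45-negative library. Right, the ratio of Col1a1 to Col1a2 FPKM, which was 0.276 and 0.271 in the vehicle libraries and between 0.271 and 0.710 in the treated ones.

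Among all other genes tested, the 5 whose log2 level followed Col1a1 most closely over the 12 CD45-negative libraries were Sympk (Pearson r = 0.95), Uggt1 (0.93), Bag6 (0.92), Fosb (0.92) and Hspg2 (0.92), given without a test since libraries share treatment and preparation. Of the collagens Col5a3 (0.89), Col6a3 (0.88) and Col5a1 (0.83) were closest and Col8a1 (0.04) and Col10a1 (-0.11) among the farthest. Its trimer partner Col1a2 stood at 0.71.

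Treatment differences were tested with limma on log2(FPKM + 1) over all genes of a fraction, and a gene was called at a Benjamini-Hochberg adjusted p under 0.05 over 10780 CD45-negative or 10340 CD45-positive genes. Differences are on that log2 scale, treated minus vehicle, and understate the change of low genes. In bulk samples fewer cells of a type and less RNA per cell cannot be told apart. The 4 comparisons with vehicle share the same 2 vehicle libraries. In the CD45-negative fraction 17 members passed the level filter. Col8a2 and Col10a1, whose mean was highest in vehicle, did not pass it without the vehicle libraries, so counts of members called against vehicle are given over the other 15 as well.

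JQ1 alone was set against vehicle to ask what BET inhibition did to collagen RNA in the CD45-negative cells. Col5a2 rose and Col8a1 fell over the spread between tumours. Col5a2 was higher by 1.002 ± 0.303 (SE, adjusted p = 0.0430), and Col8a1 was lower, with a difference of -1.15 ± 0.30 (adjusted p = 0.0260), both by limma. With a single value per animal code, which leaves 1 value for JQ1 and 1 for vehicle, neither was called (adjusted p of 0.371 and 0.299), and with relative depth as a covariate neither was (0.438 and 0.187). Col10a1, which the filter let through by its vehicle level, had a difference of -1.09 ± 0.22 (adjusted p = 0.00773, and 0.0566 without JQ1 replicate 1). Without either vehicle library it did not pass the filter, here and in the other comparisons with vehicle. With it 3 of 17 members were below the threshold, where 14.8% of all genes were. Among the 15 members that passed the filter without the higher group, 2 were called, against 14.6% of the genes that did so. The median difference of the 17 was -0.16, and that of all genes -0.05. Of the 6 fibrillar genes tested only Col5a2 was called. The others had differences of 0.995 ± 0.448 for Col5a3 and 0.49 ± 0.50 for Col1a1, and between -0.26 and 0.01 for Col1a2, Col3a1 and Col5a1. Col6a2 (-0.80 ± 0.32) and Col14a1 (0.80 ± 0.34) had an unadjusted p under 0.05 and adjusted p of 0.111 and 0.1303, and 30.9% of all genes were under that unadjusted threshold. The call of Col8a1 rested on each library of both groups, since adjusted p was 0.0806 to 0.119 without any of the 4. That of Col5a2 was lost without either vehicle library (0.225 and 0.0755), either JQ1 library (0.212 and 0.0884), any 3-drug library (0.0515 to 0.0555) or either library of JQ1 with anti-PD-L1 (0.0566 each). Col5a3 was called without JQ1 with paclitaxel replicate 3 (adjusted p = 0.0364) and Col6a2 without 3-drug replicate 3 (-0.80, 0.0469). With JQ1 replicate 2 left out, Col6a3 had a difference of 1.35 (adjusted p = 0.0401) and Col7a1 of 1.09 (0.0396), against 0.68 and 0.55 with it.

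JQ1 with paclitaxel was compared with vehicle in the same way. Col8a1 fell, with a difference of -1.36 ± 0.28 (SE, adjusted p = 0.00628, limma). With a single value per animal code, which leaves 1 for vehicle, it was not called (adjusted p = 0.0878). The difference of Col10a1, set in part by the filter, was -0.99 ± 0.20 (adjusted p = 0.00649). With it 2 of the 17 members were below the threshold, against 17.6% of all genes, and without the members passing through vehicle alone 1 of 15, against 17.5%. The median difference was -0.23 for the 17 members and -0.07 for all genes. Col18a1 (-0.96 ± 0.36, adjusted p = 0.0885) and Col8a2 (-0.73 ± 0.24, adjusted p = 0.0550) had an unadjusted p under 0.05, as had 32.2% of all genes. The call of Col8a1 was lost without vehicle replicate 2 (adjusted p = 0.0503), and was kept without the library that stood apart (-1.17, adjusted p = 0.0163). Without that library 2 further members were called: Col1a1 (0.99 ± 0.31, adjusted p = 0.0456) and Col5a3 (1.05 ± 0.29, adjusted p = 0.0291) were then higher than in vehicle, against differences of 0.40 and 0.55 with it. Col18a1 was called without 3-drug replicate 1 or 3 (adjusted p of 0.0487 and 0.0393) and Col8a2 without JQ1 replicate 2 (0.0232).

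With JQ1 and anti-PD-L1, no member passed the test in limma, while 0.25% of all genes did. An unadjusted p under 0.05 was reached by 6 of 17, and by 14.4% of all genes. Of these, Col6a3 (1.32 ± 0.39), Col5a2 (1.24 ± 0.30), Col14a1 (1.19 ± 0.34) and Col5a3 (1.18 ± 0.45) were above vehicle and Col10a1 (-1.02 ± 0.22) and Col8a1 (-0.68 ± 0.30) below it. Their adjusted p ranged over 0.0622 to 0.327. Col5a2 was called without JQ1 with paclitaxel replicate 3 (adjusted p = 0.0169). With all 3 drugs, none of the 15 members that passed the filter without the higher group was called in limma. Col10a1, with -1.10 ± 0.20, was the 1 member of 17 below the threshold (adjusted p = 0.0291), against 1.63% of all genes. Without 3-drug replicate 1 its adjusted p was 0.0605, and without replicate 2 it was 0.0967. An unadjusted p under 0.05 was reached by 3 of 17 members, Col8a1 (-0.72 ± 0.28, adjusted p = 0.177) among them, and by 19.6% of all genes.

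**Figure D3:**
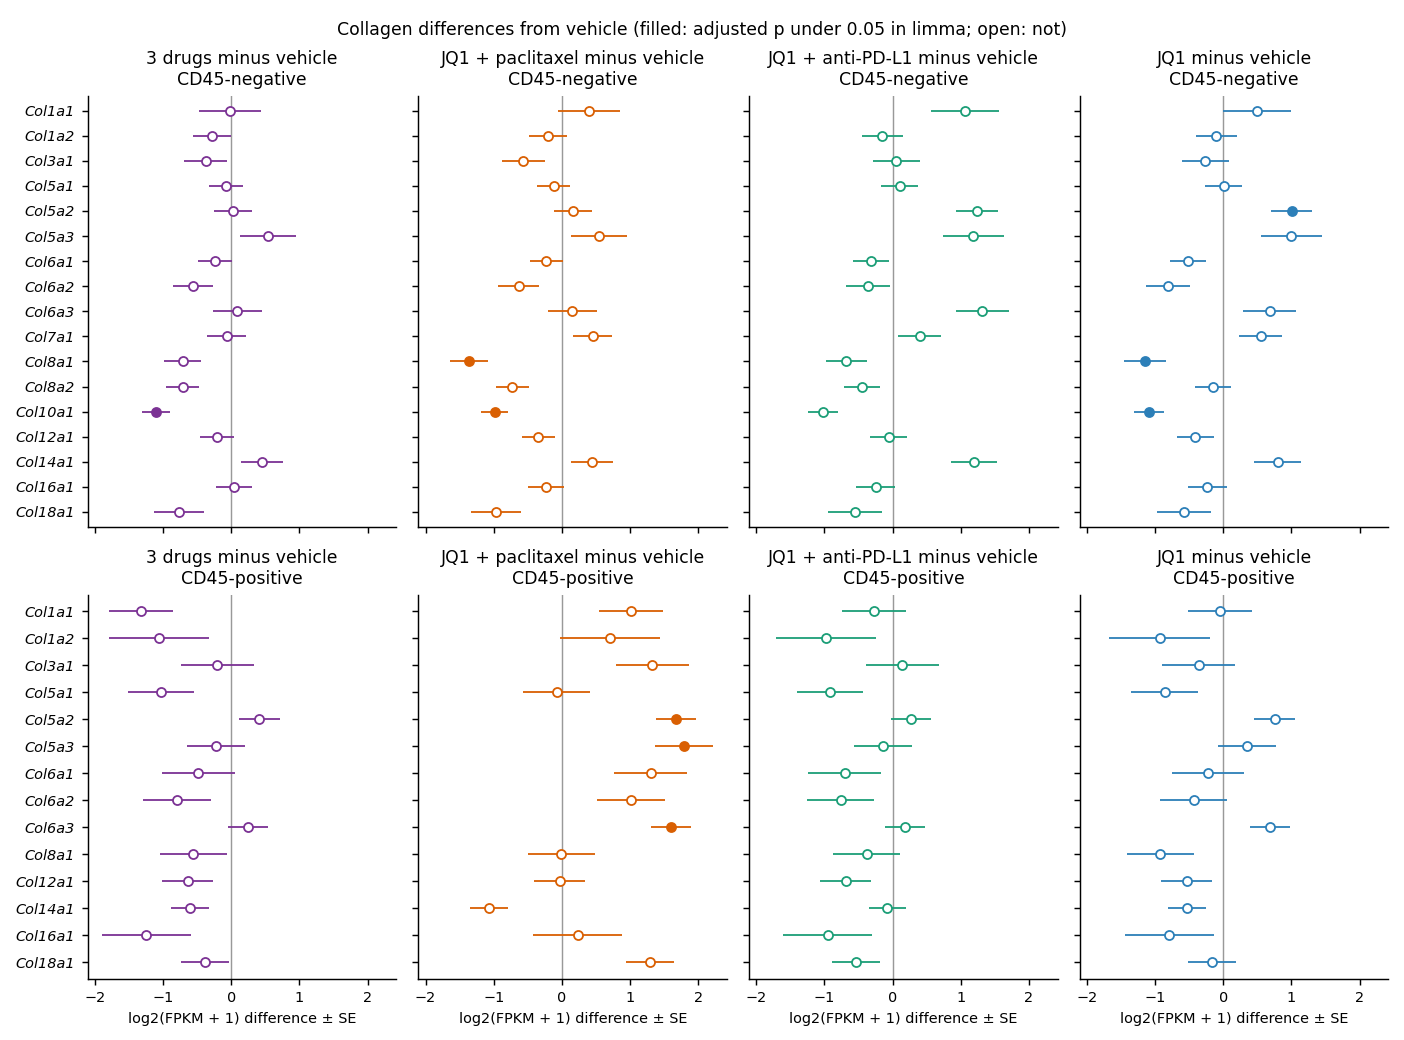
Differences in log2(FPKM + 1) from vehicle with standard errors for the 17 CD45-negative (top) and 14 CD45-positive (bottom) members tested, 1 column per treatment, filled where adjusted p was under 0.05. Col8a1 and Col10a1 lie left of 0 in all 4 CD45-negative comparisons (Col10a1 passed the level filter only through vehicle), and Col5a2, Col5a3 and Col6a3 are the 3 filled points of the CD45-positive fraction.

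The 2 drugs added to JQ1 were examined by comparing the mean of the groups with a drug with the mean of the JQ1 groups without it. With paclitaxel added, Col5a2 fell, with a difference of -1.03 ± 0.20 (SE, adjusted p = 0.0192, limma). Its libraries with paclitaxel ranged over 2.76 to 6.77 FPKM and those of the JQ1 groups without it over 9.27 to 12.8 FPKM. These ranges did not overlap, and the share of all genes without overlap was not computed. It was the only member called, against 3.56% of all genes, and the next were Col6a3 (-0.88 ± 0.25, adjusted p = 0.0748) and Col14a1 (-0.54 ± 0.22, adjusted p = 0.182). The call was kept without the JQ1 with paclitaxel library that stood apart (-0.86, adjusted p = 0.0115) and lost with a single value per animal code (0.264). It was also lost without JQ1 replicate 1 (adjusted p = 0.0795), JQ1 replicate 2 (0.0537) or JQ1 with anti-PD-L1 replicate 1 (0.119). Without JQ1 with paclitaxel replicate 2 Col14a1 was called (-0.70, adjusted p = 0.0497), and without JQ1 replicate 2 Col6a3 was (-1.21, adjusted p = 0.0383).

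With anti-PD-L1 added, none of the 17 members was called in limma, while 25% of all genes were. Only Col8a1 had an unadjusted p under 0.05, with a difference of 0.56 ± 0.20 (adjusted p = 0.0536), where 38.4% of all genes had one. Without JQ1 replicate 2 Col7a1 was called (-0.61, adjusted p = 0.0349). Col8a1 was called when the first JQ1 with paclitaxel library (0.72, adjusted p = 0.00632), the first of JQ1 with anti-PD-L1 (0.72, 0.0370) or the second of 3 drugs (0.61, 0.04998) was left out. The interaction of paclitaxel and anti-PD-L1 gave no call among the members and no unadjusted p under 0.05, with 0.00928% of all genes called and 7.15% at an unadjusted p under 0.05.

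Genes whose products fold, cut and cross-link collagen were tested in the same fits. After JQ1 alone 14.8% of all genes were called in the CD45-negative fraction. Of the 19 tested genes of procollagen folding and modification 5 were called, 1 higher and 4 lower. Plod2, the lysyl hydroxylase of the telopeptides, was higher by 1.17 (adjusted p = 0.00379). P4ha3, a prolyl hydroxylase subunit, was lower with -1.36 (adjusted p = 0.00570), as were Mia2 (-1.05) and Fkbp10 (-0.61). Of 10 genes of propeptide cleavage and cross-linking, Loxl2, a lysyl oxidase homologue, was higher by 0.90 (adjusted p = 0.0343), and Pcolce, the enhancer of procollagen C-proteinase, and Loxl4 were lower, with -1.26 and -0.80 (adjusted p = 0.00311 and 0.0261). All adjusted p are from limma over all genes.

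Pcolce stood at 544, 569 and 676 FPKM with 3 drugs, 505, 323 and 367 with JQ1 and paclitaxel, 382 and 474 with JQ1 and anti-PD-L1, 341 and 317 with JQ1, and 757 and 821 with vehicle. All treated libraries were below both vehicle libraries, with no count of other genes that did so. With JQ1 and paclitaxel, where 17.6% of all genes were called, 6 of 19 folding genes were called, 1 higher and 5 lower. Among them were P4ha3 with -1.99997 (adjusted p = 0.000292, limma), Fkbp10 with -0.90 and P4ha2 with -1.01, while Plod2 was higher by 0.80. Of the 10 cross-linking genes 4 were called lower: Loxl4, Pcolce (-1.01), Loxl3 and Lox. Without the library that stood apart, 5 folding genes (1 higher, 4 lower) and 3 cross-linking genes were called, P4ha3 at -1.76 and Pcolce at -0.96 among them, and Lox was not. No gene of either list was called with JQ1 and anti-PD-L1 or with 3 drugs, where 0.25% and 1.63% of all genes were. P4ha3 was called lower with 3 drugs when the library that stood apart was left out (-0.99, adjusted p = 0.0224, limma). With anti-PD-L1 added, where 25% of all genes were called, 6 of 19 folding genes were called. Of these 5 were higher, with P4ha2 at 0.90, Mia2 at 0.82 and Fkbp10 at 0.56, and Plod2 was lower with -0.91. Of the cross-linking genes 5 of 10 were higher, among them Adamts14 (0.88), an N-propeptidase, Loxl4 (0.60), Loxl3 (0.59) and Pcolce (0.49).

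Ctsk, the collagen-degrading cathepsin K, was the gene of collagen receptors and uptake that was called lower in 3 of the 4 comparisons with vehicle. With JQ1 and anti-PD-L1 its difference was -1.12 (adjusted p = 0.190, limma). It was called with all 3 drugs (-2.08, adjusted p = 0.0223), with JQ1 and paclitaxel (-2.25, adjusted p = 0.00123) and with JQ1 (-1.66, adjusted p = 0.0121, limma), in each the only one of 8 genes tested. Over all genes 1.63%, 17.6% and 14.8% were called in these comparisons. Without the library that stood apart, the JQ1 with paclitaxel difference was -2.06 (adjusted p = 0.00338). Its levels were 3.81, 3.51 and 9.81 FPKM with 3 drugs, 5.78, 4.75 and 3.18 with JQ1 and paclitaxel, 11.5 and 10.4 with JQ1 and anti-PD-L1, 9.29 and 5.61 with JQ1, and 27.5 and 22.7 with vehicle. All treated libraries were below both vehicle libraries, again with no count of other genes that did so. In the CD45-positive vehicle libraries Ctsk stood far higher, at 799 and 472 FPKM. The part of leukocytes in its CD45-negative level was not tested. With anti-PD-L1 added, where 25% of all genes were called, Ddr2 (0.32) and Lair1 (0.74), both collagen receptors, were higher.

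Lists of cell type markers are set beside these values. Over all CD45-negative genes 14.8% were called with JQ1, 17.6% with JQ1 and paclitaxel and 3.56% with paclitaxel added. With anti-PD-L1 added 25% were called, and 14% were called higher. Of 12 fibroblast markers that are not collagens, JQ1 gave 2 higher, Dpt (1.05) and Fbn1 (1.30), and 2 lower, Dcn (-1.35) and Pdgfra (-1.08). Their summed level was 1137 to 1448 FPKM with 3 drugs, 870.1 to 1391 with JQ1 and paclitaxel, 1166 to 1275 with JQ1 and anti-PD-L1, 1053 to 1127 with JQ1 and 1293 to 1413 with vehicle. Epithelial markers were lower with JQ1 in 3 of 6 tested, and their sum was 299.7 to 360.4 FPKM with JQ1 and 512 to 894 with vehicle. Pan-leukocyte markers gave no call against vehicle, and 3 of 12 were higher with anti-PD-L1 added. In that comparison 4 of 12 fibroblast markers, Dcn (0.85), Mfap5 (0.67), Pdgfra (0.49) and Fbln1 (0.45), and 2 of 6 epithelial markers, Trp63 (1.18) and Krt18 (0.90), were higher too, beside the folding and cross-linking genes. Without the library that stood apart, 2 of 12 leukocyte, 2 of 12 fibroblast and 3 of 6 epithelial markers were. Endothelial and pericyte marker sums were low in the CD45-negative fraction, at most 39.8 and 10.4 FPKM, and muscle markers of at most 10.3 FPKM. Adipocyte markers gave 1 call of 5, Fabp4, higher with JQ1 and paclitaxel, where the median difference of the 5 was -0.40. Of 7 cartilage and bone markers 2 were tested, of which Bglap was lower with JQ1 (-0.92) and higher with anti-PD-L1 added (0.51). Both Bglap (1.04) and Sox9 (0.89) were higher with paclitaxel added. With JQ1 and paclitaxel 1 marker each of fibroblasts (Mfap5, -1.14, lower), endothelium (Eng, 1.23, higher) and muscle (Mylpf, 1.17, higher) was called, and 2 epithelial markers were lower. Without the library that stood apart these were called too, with 4 epithelial markers lower and the pericyte marker Rgs5 higher. With paclitaxel added Dcn (1.05) and Pdgfra (0.77) were higher and Fbln1 (-0.75) lower, with and without that library. Their part in the collagen differences was not tested.

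Collagen RNA was much lower in the CD45-positive fraction, where the members summed to 0.0145% to 0.0839% of all FPKM. In the 10 tumours with both fractions, the CD45-positive level as a share of the CD45-negative level of the same tumour had a median of 3.23% for Col1a2, 3.88% for Col1a1, 4.23% for Col3a1 and 3.62% for Col6a1. The share ranged over 1.29% to 16.6% for Col1a1 and 0.526% to 8.13% for Col16a1. Col5a2, Col6a3 and Col18a1 had higher shares, with medians of 12.2%, 25.6% and 13.7% and highest values of 137%, 558% and 50.7%. Both JQ1 with paclitaxel tumours had the highest shares for Col1a2, Col3a1, Col5a2, Col5a3, Col6a1, Col6a2, Col8a1 and Col18a1. For Col1a1, Col5a1, Col6a3, Col12a1, Col14a1 and Col16a1, the other members tested in both fractions, they did not. The tumour with 137% and 558% was the one whose CD45-negative library had the lowest collagen values.

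Col14a1 was the exception, and it is named after its values were seen. Its CD45-positive level was above its CD45-negative level in 10 of 10 tumours, at 249% to 1552%. It stood at 6.54 and 6.03 FPKM with 3 drugs, 4.48 and 4.06 with JQ1 and paclitaxel, 8.63 and 10.4 with JQ1 and anti-PD-L1, 7.03 and 6.31 with JQ1, and 7.42 and 13.6 with vehicle in the CD45-positive fraction. In CD45-negative libraries it was 0.478 to 3.48 FPKM. Both JQ1 with paclitaxel libraries were the lowest of the CD45-positive fraction, and their difference from vehicle was -1.07 ± 0.28 (adjusted p = 0.0641, limma).

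**Figure D4:**
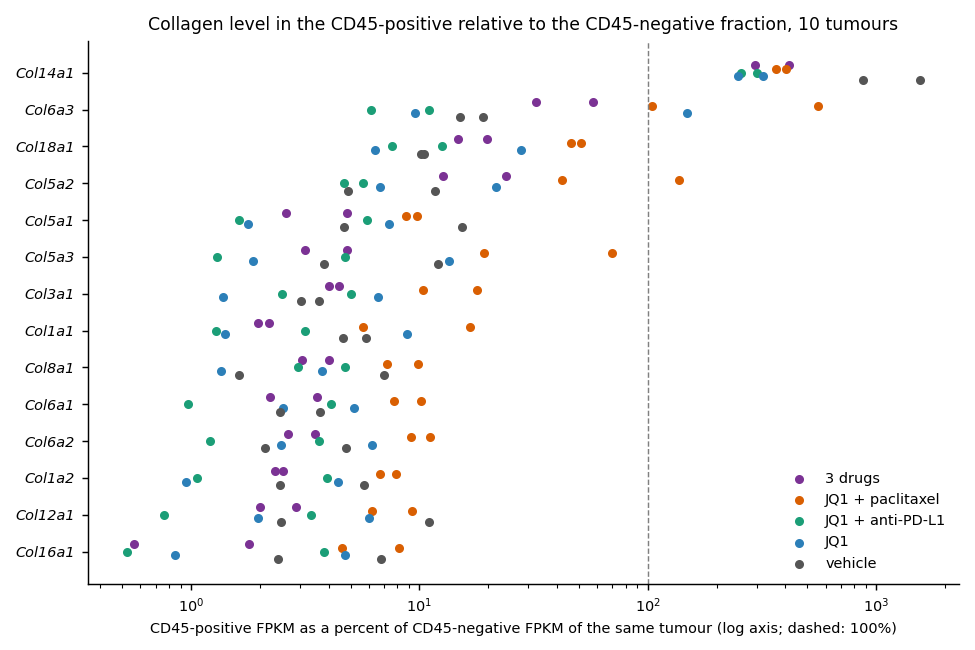
CD45-positive FPKM as a percent of the CD45-negative FPKM of the same tumour, on a log axis, for the 14 members tested in both fractions, with 1 point for each of 10 tumours. Col14a1 lies above 100% in every tumour, Col6a3 in 3 tumours and Col5a2 in 1, and the other genes lie below it.

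In the CD45-positive fraction 14 members passed the level filter, and only JQ1 with paclitaxel gave calls. Col5a2 and Col5a3 rose against vehicle, and Col6a3, which passed the filter through these libraries, is described beside them. Col5a2 stood at 0.563 and 1.04 FPKM with 3 drugs, 2.84 and 3.78 with JQ1 and paclitaxel, 0.721 and 0.511 with JQ1 and anti-PD-L1, 0.707 and 1.999 with JQ1, and 0.421 and 0.265 with vehicle. Col5a3 stood at 0.731 and 0.713 FPKM with 3 drugs, 5.37 and 6.55 with JQ1 and paclitaxel, 0.559 and 1.11 with JQ1 and anti-PD-L1, 0.654 and 2.97 with JQ1, and 1.70 and 0.488 with vehicle. Col6a3 stood at 0.399 and 0.378 FPKM with 3 drugs, 1.99 and 3.23 with JQ1 and paclitaxel, 0.293 and 0.372 with JQ1 and anti-PD-L1, 0.397 and 1.54 with JQ1, and 0.199 and 0.148 with vehicle. For each of the 3 genes both JQ1 with paclitaxel libraries were the highest of the fraction. Among the members tested, the same held for Col1a1, Col3a1, Col6a1, Col6a2 and Col18a1, none of them called.

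The differences from vehicle were 1.68 ± 0.30 for Col5a2 (SE, adjusted p = 0.0196), 1.79 ± 0.43 for Col5a3 (adjusted p = 0.0491) and 1.60 ± 0.30 for Col6a3 (adjusted p = 0.0223), all by limma. These were 3 of 14 members, where 4.84% of all genes were called. Col6a3 met the level filter only with the JQ1 with paclitaxel libraries, and among the 13 members that met it without them or without vehicle, whichever was higher, 2 were called, against 4.40% of such genes. The median difference was 1.01 for the 14 members and -0.09 for all genes. None of the 3 was called with a single value per animal code (adjusted p of 0.199, 0.176 and 0.201 for Col5a2, Col5a3 and Col6a3) or with relative depth as a covariate (0.413, 0.507 and 0.353). Of the rest, Col3a1 (1.33 ± 0.54), Col6a1 (1.30 ± 0.53), Col18a1 (1.29 ± 0.35) and Col14a1 had an unadjusted p under 0.05, as had 21.3% of all genes. Col3a1 stood at 59.6 and 40.9 FPKM in these libraries and at 19.8 and 18.4 in vehicle libraries. The 3 calls were lost without vehicle replicate 1 (adjusted p of 0.1296, 0.131 and 0.143 for Col5a2, Col5a3 and Col6a3), when vehicle replicate 2 was left out (0.120, 0.213 and 0.124) and when the second JQ1 with paclitaxel library was (0.153, 0.264 and 0.173). Without JQ1 with paclitaxel replicate 1, only Col6a3 of the 3 was called, with adjusted p of 0.0551 for Col5a2 and 0.124 for Col5a3. Col5a3 also lost its call without either 3-drug library (0.0550 and 0.0554) or either JQ1 with anti-PD-L1 library (0.0758 and 0.0760). Col18a1 was called without either JQ1 library (0.0277 and 0.0285).

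Vessel and stromal markers were higher in the same libraries, in a comparison where 4.84% of all genes were called. All 10 endothelial markers tested were called higher with JQ1 and paclitaxel, led by Esam (3.87, adjusted p = 0.000318), Emcn (2.68, 0.00110), Pecam1 (2.87, 0.00137) and Egfl7 (2.80, 0.00331) in limma. So were 4 of 5 pericyte markers, among them Mcam (3.58) and Rgs5 (2.91), and 5 of 8 fibroblast markers, among them Postn (2.43), Sparc (2.47), Thy1 (1.12) and Lum (0.85). Thy1 does not separate the fractions as the rest of its list does, with a median of 0.539 FPKM in CD45-negative and 0.628 FPKM in CD45-positive libraries. It is thus not read as a fibroblast signal here. It was also called higher with JQ1 (1.25, adjusted p = 0.0396, limma), where 1.04% of all genes were called. The summed endothelial level was 29.6 to 35.1 FPKM with 3 drugs, 93.3 to 120.2 with JQ1 and paclitaxel, 19.3 to 19.4 with JQ1 and anti-PD-L1, 41.3 to 41.5 with JQ1 and 6.73 to 11.05 with vehicle. Endothelial markers were also called higher in groups with no collagen call: Esam (2.33) and Emcn (1.80) with 3 drugs, and Esam (2.26), Pecam1 (2.06), Emcn (1.36) and Egfl7 (1.74) with JQ1, along with the pericyte marker Mcam in both (1.80 and 2.0015). The pericyte sum was 30.4 to 30.7 and 2.71 to 8.41 FPKM, and the fibroblast sum 239 to 285 and 40.8 to 70.2 FPKM, each with JQ1 and paclitaxel first. Pan-leukocyte markers, of which 1 of 12 was called, lower, summed to 1607 to 1831 FPKM with JQ1 and paclitaxel and 2278 to 2449 with vehicle. The N-propeptidase Adamts2 (1.90), Loxl2 (1.74) and the collagen-binding integrin gene Itga1 (1.21) were also called higher. So was Fabp4 (4.49) of the adipocyte list, but the median difference of the 3 genes tested from that list was -1.01. The part of these cells in the 3 collagen calls was not tested.

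**Figure D5:**
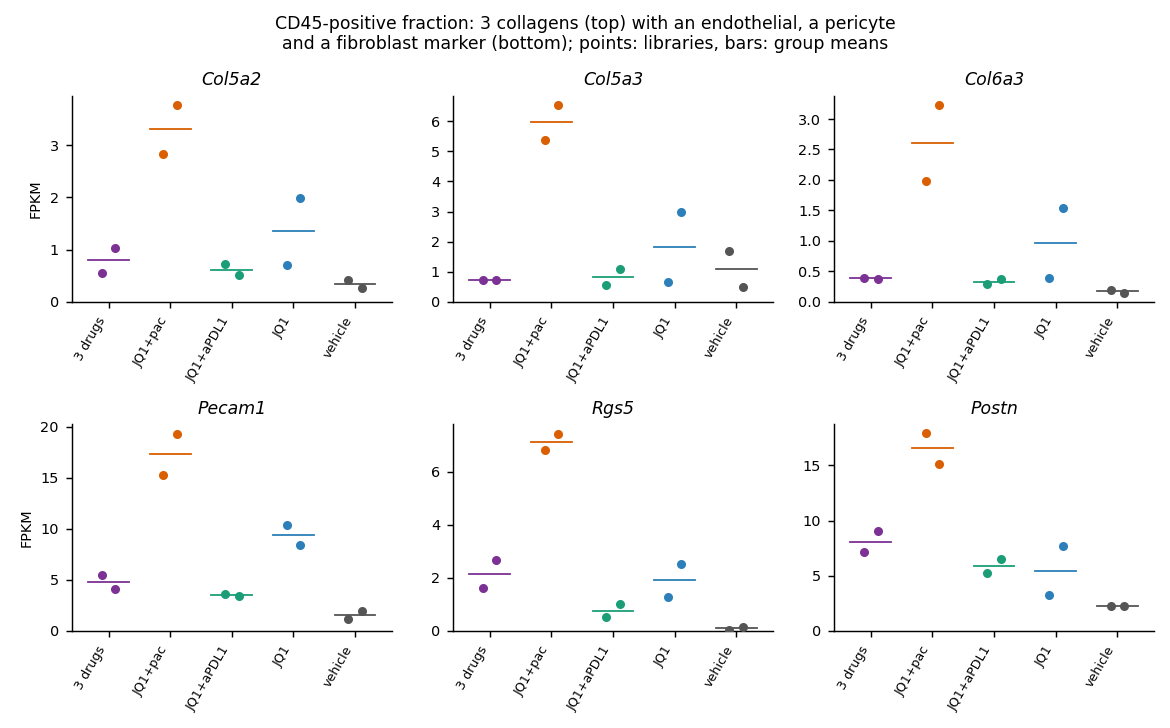
FPKM of Col5a2, Col5a3 and Col6a3 (top) and of the endothelial marker Pecam1, the pericyte marker Rgs5 and the fibroblast marker Postn (bottom) in the CD45-positive fraction, with 1 point per library and a bar at each group mean (JQ1+pac is JQ1 with paclitaxel, JQ1+aPDL1 is JQ1 with anti-PD-L1). Both JQ1 with paclitaxel libraries are the highest in all 6 panels, for instance 15.3 and 19.3 FPKM for Pecam1 against 1.10 and 1.96 in vehicle.

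The other CD45-positive comparisons gave no call among the 14 members in limma. Against vehicle, an unadjusted p under 0.05 was reached by 1 member with 3 drugs (Col1a1, -1.32 ± 0.47), by none with JQ1 and anti-PD-L1 and by 2 with JQ1 (Col5a2, 0.76, and Col6a3, 0.68). The share of all genes at that unadjusted threshold was 8.73%, 7.11% and 19.7%, and 0.135%, 0.029% and 1.04% were called. With paclitaxel added 5 members had an unadjusted p under 0.05, against 9.45% of all genes, and 0.0387% of all genes were called. With anti-PD-L1 added 8 members had one, all but Col14a1 lower, against 18.7% of all genes, and 0.832% of all genes were called. Among these 8 were Col6a3 (-0.93, adjusted p = 0.0783), Col5a2 (-0.88, 0.0885) and Col5a3 (-1.26, 0.0885). In both comparisons Col5a2, Col6a3 and Col12a1 did not pass the level filter without the higher groups. The direction of their differences was thus in part built into their being tested. Of the 11 members that passed it otherwise, 0 were called in either comparison, against 0.041% and 0.804% of such genes. In that comparison 5 of 10 endothelial and 2 of 5 pericyte markers were called lower. The interaction of the 2 drugs gave 0% of all genes called, and 4 members had an unadjusted p under 0.05, against 10.3% of all genes. Among these Col1a1 had the largest difference, -2.11 ± 0.67 (adjusted p = 0.371).

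In the CD45-positive fraction 22 members were not tested. Col7a1 reached 3.61 FPKM in the first vehicle library and at most 0.657 FPKM in any other, and the other 21 stayed under 1 FPKM. That vehicle library also had the highest CD45-positive values of Col5a1 (6.30 FPKM), Col8a1 (3.83 FPKM) and Col12a1 (2.40 FPKM).

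Collagen transcripts are long, with a median of 5595 bases for the 17 members tested in the CD45-negative fraction against 2997 bases for all genes tested. Across genes, the deviation of a library from the mean correlated with log2 transcript length at -0.22 in both vehicle libraries, and at 0.30 and 0.21 in the first libraries of JQ1 and of JQ1 with paclitaxel. The others of these 2 groups had -0.014 with JQ1 and 0.045 and 0.0085 with JQ1 and paclitaxel. With 3 drugs the values were -0.117, 0.163 and -0.096, and with JQ1 and anti-PD-L1 -0.072 and -0.059. The correlation was also used as a covariate, a choice made after seeing the data. The CD45-negative calls against vehicle were then 0 with 3 drugs, 1 with JQ1 and paclitaxel and 0 with JQ1. The 1 call was Col10a1 (adjusted p = 0.0448, limma), which passed the filter only through vehicle. Col8a1 was not called there (adjusted p = 0.0598, limma). The 3 CD45-positive calls were lost.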

How the data were processed

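Per the labels' protocols, RNA of bead-separated tumour cells was made into libraries with a low-input SMARTer kit. Per the submitters' processing notes, STAR 2.5.1b and the mm9 build were used, while which program computed gene values is not given in the sources used here. For each fraction the authors deposited 1 table, and its values were taken as FPKM from their decimals and column sums, although its label speaks of counts. No column was left out. Absolute depth is unknown, so precision was read from the spread between libraries. Genes that reached 1 FPKM in 2 or more libraries of their fraction were fitted with limma 3.58.1 in R 4.3.3, with a mean-variance trend on log2(FPKM + 1), 1 fit per fraction over 5 groups, 7 and 5 residual degrees of freedom and two-sided tests, at a Benjamini-Hochberg adjusted p under 0.05. Replicate numbers follow the order of the samples and pair nothing. Named were the 12 members of highest CD45-negative mean, every member called, and for other lists the called genes, at most 4 a list and comparison, or else the 2 of highest mean. The members and lists were chosen with earlier results of these data known. The other lists were procollagen folding, propeptide cleavage and cross-linking, collagen receptors and uptake, and markers of fibroblasts, epithelium, leukocytes, endothelium, pericytes, skeletal muscle, adipocytes, and cartilage and bone. The alternatives were a pseudocount of 0.1, no filter, median-ratio scaling, quantile normalization, a single value per animal code, relative depth or the length relation as a covariate, only the groups compared, and each library left out. Counts over genes that pass the filter without the libraries of the higher group, and the fit of the other lists without 1 library, were chosen after seeing the data. The test was checked on simulated data. Promoters came from RefSeq. Python 3.11.15, pandas 2.3.3 and matplotlib 3.10.9 drew the figures.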

Additional observations from a re-analysis of the deposited data

Results flagged for a closer look

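For 3 genes all libraries of 1 treatment lay above both vehicle libraries in 1 fraction and below both in the other. Over the 9618 genes tested in both fractions, the share with this pattern was 4.02% with 3 drugs, 2.6% with JQ1 and paclitaxel, 5.73% with JQ1 and anti-PD-L1 and 4.04% with JQ1, and among the 14 collagen genes the count was 0, 2, 0 and 1. In none of the 3 was the difference between fractions tested, since the 2 tables were normalized separately, and none of the 6 values passed the adjusted threshold in limma. Col6a2 with JQ1 and paclitaxel had a log2 difference from vehicle of -0.64 in the CD45-negative and 1.01 in the CD45-positive fraction. Col18a1 with JQ1 and paclitaxel had -0.96 in the CD45-negative and 1.29 in the CD45-positive fraction. Col14a1 with JQ1 had 0.80 in the CD45-negative and -0.53 in the CD45-positive fraction.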

How the results depend on the processing

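No paired analysis was possible because the treatments compared within a fraction share no replicate number or tumour, and the fractions, which share tumours, were not tested against each other. Counts of called collagen genes are given in the order 3 drugs, JQ1 with paclitaxel, JQ1 with anti-PD-L1 and JQ1. In the CD45-negative fraction these were 1, 2, 0 and 3, Col10a1 included, where 1.63%, 17.6%, 0.25% and 14.8% of all genes were called. The share of all genes called under each alternative is not given here, so the counts only describe how the calls of members moved. With a pseudocount of 0.1 they became 0, 1, 0 and 1. Without a filter 1 was called with JQ1 and anti-PD-L1 and 1 with JQ1. Both were Col10a1, so Col5a2 and Col8a1 lost their JQ1 calls. Quantile normalization gave 1 with JQ1 and anti-PD-L1, which was Col10a1, and 2 with JQ1, Col10a1 and Col5a2, where Col8a1 was lost. With a single value per animal code no comparison gave a call, in either fraction, a fit with fewer samples. With relative depth as a covariate the calls were 0 with 3 drugs and 0 with JQ1. With only the groups compared there were 3 with JQ1 and paclitaxel, 2 with JQ1 and anti-PD-L1 and 5 with JQ1. Col10a1 was among those with JQ1 and paclitaxel and those with JQ1. With the length relation as a covariate there were 0, 1, 0 and 0, the 1 being Col10a1. For paclitaxel added, the count of 1 became 0 without a filter, 0 with a single value per animal code and 2 with the length relation. For anti-PD-L1 added, the count of 0 became 1 without a filter and 1 with relative depth. In the CD45-positive fraction the 3 calls with JQ1 and paclitaxel became 0 with a single value per animal code, 0 with relative depth, 0 with the length relation, 2 with a pseudocount of 0.1 or without a filter, 4 with median-ratio scaling and 6 with only the groups compared, and JQ1 gave 1 without a filter. The cause of these changes was not tested. Leaving out 1 library gave CD45-negative counts of 0 to 1 with 3 drugs, 0 to 4 with JQ1 and paclitaxel, 0 to 1 with JQ1 and anti-PD-L1, 0 to 4 with JQ1, 0 to 2 for paclitaxel added and 0 to 1 for anti-PD-L1 added, and CD45-positive counts of 0 to 4 with JQ1 and paclitaxel. Direction was followed only for member differences with an unadjusted p under 0.05 in the limma fit reported above. Differences with a larger p were not counted, so sign changes among them are not covered. Of those followed 1 changed sign, Col14a1 with JQ1 in the CD45-negative fraction. It was -0.10 with relative depth as a covariate and 0.80 without it. Over the differences followed and the alternatives, 832 kept direction and side of the threshold, 70 lost and 23 gained a call. Scaling moved the median of all genes by over 0.1 in the CD45-positive fraction alone, by -0.16 in the interaction and by 0.11 with JQ1 and paclitaxel.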

Other observations

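Ctsk, the cathepsin K gene, was also measured in the CD45-positive fraction and is given there after its values were seen. It stood at 22.3 and 145 FPKM with 3 drugs, 121 and 25.7 with JQ1 and paclitaxel, 77.3 and 44.1 with JQ1 and anti-PD-L1, 3.13 and 54.2 with JQ1, and 799 and 472 with vehicle. Every treated library was below both vehicle libraries, and the share of all genes with this pattern was not computed. The log2 differences from vehicle were -3.40, -3.43, -3.37 and -5.35 in the same order of treatments. None passed the adjusted threshold in limma, with adjusted p of 0.495, 0.155, 0.626 and 0.0793.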
